A study of Mus musculus with 4 samples.

Results

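After 1 h of IL-1α, 2 lines of immortalized mouse macrophages differed in the mRNA of a set of inflammatory genes. The line without the kinase MK2 held more of it than the line given *MK2* back. The line without MK2 is i*MK2*-KO +*GFP*, and the other, i*MK2*-KO +*MK2*, has the kinase restored. They are written +*GFP* and +*MK2* here. For many of these genes the lines had been alike before treatment, and the examples that follow were chosen from those. *Tnf*, *Cxcl2*, *Nfkbiz*, *Nfkbia*, *Nfkbie*, *Tnfsf9* and *Tlr2* were 5.93-fold to 245-fold higher in +*GFP* than in +*MK2* cells after IL-1α, while in untreated (UT) cells *Cxcl2* was at 0 in both lines and the others differed by 1.37-fold at most. The comparison is between 2 RNA-sequencing libraries, IL-1α-treated +*GFP* and IL-1α-treated +*MK2*, of the 4 in the series, and it was read beside the UT library of each line. A gene entered when its mean over the 4 libraries was at least 10 normalized counts, which 12483 of 55356 genes reached. Another 33730 genes were at 0 in all 4 libraries.

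All 4 libraries came from macrophages of *MK2* knockout mice that had been immortalized, so the endogenous gene was disrupted in both lines. The +*GFP* line had received an empty retroviral vector that carries *GFP*, and the +*MK2* line a vector that also carries *MK2*. Both were sorted for GFP, and the MK2 of the second line is therefore driven by the vector. Recombinant murine IL-1α was given at 5 ng/mL for 1 h. Each condition had 1 library, so no difference has a replicate check and no test was made. With 1 line a side, an effect of MK2 cannot be told apart from other differences between the lines. Intervals given here are exact 95% Clopper-Pearson intervals on the share of a gene's reads in 1 of 2 libraries, with normalized counts taken as reads, and cover counting error only.

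IL-1α binds the IL-1 receptor, which recruits MyD88 and the IRAK kinases and through TRAF6 and TAK1 activates the IκB kinases and the MAP kinases p38 and JNK. The IκB kinases release NF-κB, a family of dimeric transcription factors that induces cytokines, chemokines and its own inhibitors within an hour. MK2, encoded by *Mapkapk2*, is a kinase activated by p38 and known for phosphorylating tristetraprolin (*Zfp36*), a protein that binds AU-rich elements in the 3′ untranslated region (UTR) of cytokine mRNAs and promotes their decay.

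The labels were checked against the vector's gene and against cell markers. *Mapkapk2* was at 561 normalized counts in UT and 1585 in IL-1α-treated +*GFP* cells, against 38357 and 38141 in +*MK2* cells. All 16 macrophage markers examined passed the minimum, with *Lyz2*, lysozyme, between 59858 and 64591 in the 4 libraries. Of 24 markers of other cell types, 16 were at 0 in all libraries and only *Zbtb46*, a dendritic cell transcription factor, passed the minimum, at 18 in +*GFP* and 115 in +*MK2* cells after IL-1α. The normalized counts summed to between 24891906 and 25733071 per library. The read depth is unknown, because the size factors behind the values were not given.

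After IL-1α, 519 genes (4.16%) were at least 2-fold higher in +*GFP* cells and 695 (5.57%) at least 2-fold lower. In UT cells the numbers were 438 (3.51%) and 657 (5.26%). The log2 ratio of +*GFP* over +*MK2*, computed on the normalized count plus 1, had a median of 0.03 after IL-1α and 0.02 in UT cells over all 12483 genes. Most genes that differed 2-fold after IL-1α, 721 in all, also did so in the same direction in UT cells. Across genes, which are not independent replicates, the log2 ratios after IL-1α and in UT cells were correlated with a Pearson r of 0.774 and a Spearman rank correlation of 0.658. The 2 libraries of a line come from the same cells, and a difference that is constant in a line appears in both ratios.

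Of the 519 genes higher after IL-1α, 271 were also at least 2-fold higher in UT cells, 92 had a smaller UT difference, 12 had been at least 2-fold lower, and 144 had a UT log2 ratio within 0.5 of 0. These 144 genes, 1.15% of those examined, are called higher only after IL-1α. Of the 695 lower genes, 450 were also lower in UT cells, 118 had a smaller UT difference, 8 had been higher, and 119 (0.953%) were lower only after IL-1α. Fewer cells of a kind and less RNA per cell cannot be told apart in such bulk libraries.

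**Figure D1:**
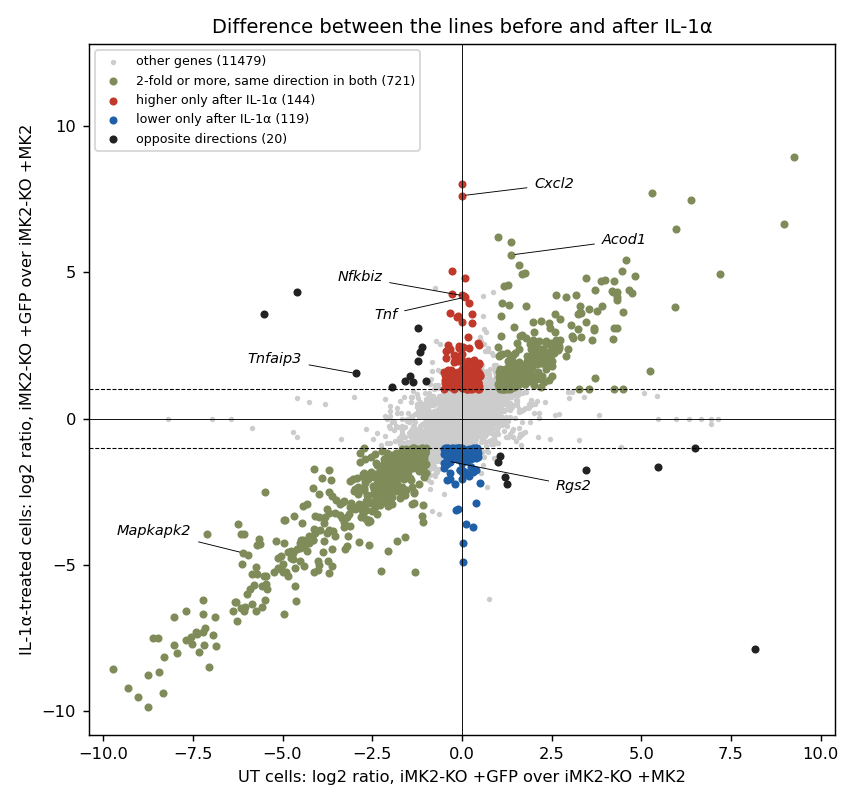
Each point is 1 of the 12483 genes, placed by its log2 ratio of +*GFP* over +*MK2* in UT cells (horizontal) and after IL-1α (vertical), with 1 library per condition. The diagonal cloud is the difference shared by both states (721 genes at 2-fold or more), and the vertical columns at 0 are the 144 genes higher and 119 lower only after IL-1α, with dashed lines at 2-fold.

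The 144 genes higher only after IL-1α had higher values with IL-1α mainly in +*GFP* cells. With IL-1α, 83 of them were at least 2-fold higher than without it in +*GFP* cells, which 2.25% of all 12483 genes were. Their median log2 change upon IL-1α was 1.14 in +*GFP* and -0.03 in +*MK2* cells, against 0.01 in both lines over all genes. The IL-1α-treated +*GFP* library was the highest of the 4 for 132 of them. The rule for this class already requires a larger log2 change with IL-1α in +*GFP* than in +*MK2* cells. These counts and medians therefore partly restate the rule. Summed, they held 66907 normalized counts in UT and 215520 in IL-1α-treated +*GFP* cells, and 60196 and 64161 in +*MK2* cells. For 134 the counting interval of the IL-1α ratio lay above 0. For 74 it lay wholly above 2-fold, against 304 of all 519 genes higher after IL-1α.

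A smaller group reached the class by the other route. Among the 144 genes, 24 were at least 2-fold lower in IL-1α-treated than in UT +*MK2* cells, which 1.03% of all genes were. The rule for the class also favors such genes. An example, picked after its values were seen, is *2210418O10Rik*, at 755 and 643 in UT and IL-1α-treated +*GFP* cells and at 914 and 33 in +*MK2* cells. Here the IL-1α-treated +*MK2* library was the low one, and the other 3 lay between 643 and 914.

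Cytokine and chemokine genes were among those with large ratios. *Tnf*, tumor necrosis factor, was at 332 in UT and 10784 in IL-1α-treated +*GFP* cells, and at 315 and 608 in +*MK2* cells. After IL-1α it was 17.7-fold higher in +*GFP* cells, with a log2 ratio of 4.15 and a counting interval of 4.03 to 4.27. In UT cells its log2 ratio was 0.08, with an interval of -0.15 to 0.30. The UT levels thus differed by less than counting error, and the IL-1α-treated +*GFP* library lay far above the other 3.

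*Cxcl2*, a chemokine that attracts neutrophils, was at 0 in both UT libraries, at 981 in IL-1α-treated +*GFP* and at 4 in IL-1α-treated +*MK2* cells. The IL-1α ratio was 245-fold, with a log2 counting interval of 6.58 to 9.82. Against a floor of 3 normalized counts for the UT library, *Cxcl2* was at least 327-fold higher after IL-1α in +*GFP* cells. *Tnfsf9*, the ligand of the costimulatory receptor 4-1BB, was at 242 and 2983 in UT and IL-1α-treated +*GFP* cells and at 264 and 270 in +*MK2* cells, a ratio of 11.0-fold after IL-1α. In +*MK2* cells its level was thus the same with and without IL-1α within counting error, the log2 change being 0.03 with an interval of -0.22 to 0.28.

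Among CC chemokines, 7 of 13 listed genes passed the minimum, 2 of them higher after IL-1α and 2 lower. For this and the other lists, the shares over all genes were 4.16% higher and 5.57% lower. *Ccl4*, which attracts monocytes and T cells, was at 671 and 4570 in UT and IL-1α-treated +*GFP* cells and at 842 and 883 in +*MK2* cells, 5.18-fold higher after IL-1α. *Ccl3* was at 1872 and 6994 against 2558 and 2748, 2.55-fold higher after IL-1α. Both belong to the class higher only after IL-1α, with UT log2 ratios of -0.33 and -0.45. *Ccl2* and *Ccl7*, which recruit monocytes through the receptor CCR2, were lower in +*GFP* cells in both states: *Ccl2* was at 1216 and 1773 in +*GFP* against 3868 and 3599 in +*MK2* cells, and *Ccl7* at 152 and 184 against 985 and 842. The median log2 ratio of the CC chemokines was -0.47 after IL-1α and -1.04 in UT cells.

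Only 2 of 10 CXC chemokines passed the minimum, *Cxcl2* and *Cxcl10*, and both were higher. *Cxcl2* passed it only through the IL-1α-treated +*GFP* library, so its direction was fixed once it entered. *Cxcl10*, an interferon-inducible chemokine, was at 58 and 522 in UT and IL-1α-treated +*GFP* cells and at 104 and 136 in +*MK2* cells, 3.84-fold higher after IL-1α. *Cxcl1*, often induced together with *Cxcl2*, held between 0 and 4 normalized counts in the 4 libraries. Of 20 other cytokines 6 passed, with a median log2 ratio of 1.55 after IL-1α and -0.11 in UT cells. Beside *Tnf* and *Tnfsf9*, *Csf1*, the macrophage growth factor, was 2.38-fold higher after IL-1α, at 1153 and 4332 in +*GFP* against 1526 and 1823 in +*MK2* cells. *Il6* held at most 2 and *Il12b* was at 0 in all libraries, so these cytokines were below what could be compared.

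**Figure D2:**
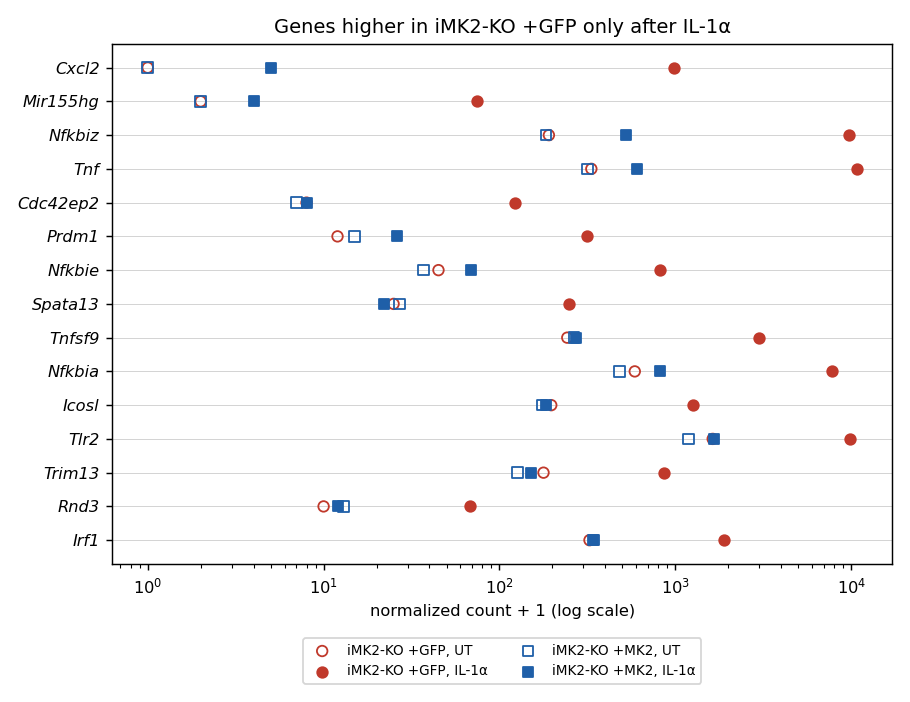
Normalized counts plus 1 on a log axis for the 15 named genes that were higher only after IL-1α, in order of their log2 ratio, with circles for +*GFP* and squares for +*MK2* cells, open for UT and filled for IL-1α-treated. The filled circle lies to the right of the other 3 symbols for every gene, at 981 for *Cxcl2* and 10784 for *Tnf*.

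More than 1 gene of the IκB family and of NF-κB feedback was higher after IL-1α. Of 14 listed genes all passed the minimum, 8 were at least 2-fold higher after IL-1α, none was lower and 6 were within 2-fold. Their median log2 ratio was 1.36 after IL-1α and 0.22 in UT cells. For 6 of the 8 the UT log2 ratio lay within 0.5 of 0.

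*Nfkbia*, which encodes IκBα, was at 587 and 7794 in UT and IL-1α-treated +*GFP* cells and at 480 and 815 in +*MK2* cells, 9.56-fold higher after IL-1α. *Nfkbie*, encoding IκBε, was at 44 and 821 against 36 and 68, 12.1-fold higher. *Nfkbiz*, encoding the nuclear coactivator IκBζ that is needed for secondary response genes, was at 190 and 9664 against 183 and 526, 18.4-fold higher. These 3 genes also had a higher value with IL-1α than without it in +*MK2* cells, by 1.70-fold, 1.89-fold and 2.87-fold, compared with 13.3-fold, 18.7-fold and 50.9-fold in +*GFP* cells. The IL-1α-treated +*MK2* library thus lay above its UT library as well, by less than in +*GFP* cells.

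*Bcl3*, a nuclear IκB protein, was at 30 and 135 in UT and IL-1α-treated +*GFP* cells and at 35 and 29 in +*MK2* cells. *Tnip1* (2.67-fold) and *Nfkbid* (2.46-fold) completed the genes of this list that were higher only after IL-1α. *Tnip3* was 8.79-fold higher after IL-1α but also higher in UT cells, at 222 and 1063 against 80 and 121. *Cyld* and *Otulin*, deubiquitinases of the pathway, had log2 ratios of 0.43 and -0.19.

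All 5 NF-κB subunit genes passed, with a median log2 ratio of 1.38 after IL-1α and 0.23 in UT cells, and 3 were at least 2-fold higher only after IL-1α. *Relb*, a subunit of the non-canonical pathway, was at 99 and 706 in UT and IL-1α-treated +*GFP* cells and at 86 and 131 in +*MK2* cells, 5.39-fold higher after IL-1α. *Nfkb2*, the p100 precursor of its partner p52, was at 541 and 1787 against 541 and 545, 3.28-fold higher. *Rel*, encoding c-Rel, was 2.60-fold higher. *Nfkb1* and *Rela*, which form the canonical heterodimer, were under 2-fold, with log2 ratios of 0.58 and 0.64.

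Upstream of NF-κB the lines differed less. A list of 10 kinases, ligases and adaptors held genes of the non-canonical pathway, and also *Ikbkb* and *Ikbkg* of the canonical IκB kinase complex. In this list 2 genes were at least 2-fold higher after IL-1α, *Birc3* and *Traf1*, and none lower, with a median log2 ratio of 0.38. *Ikbkb* and *Ikbkg* had log2 ratios of -0.42 and -0.44. *Birc3*, encoding the ubiquitin ligase cIAP2, was at 573 and 1546 in +*GFP* against 534 and 466 in +*MK2* cells. *Traf1*, a known NF-κB target, was at 15 and 341 against 4 and 10, and had been higher in UT cells as well. It passed the minimum only through the IL-1α-treated +*GFP* library, so its direction was fixed once it entered. *Map3k14*, encoding the kinase NIK, had a log2 ratio of -0.32, and *Chuk*, encoding IKKα, of 0.36.

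Among 16 genes of IL-1 receptor signaling 13 passed, none was at least 2-fold higher after IL-1α and 1 was lower, with a median log2 ratio of 0.16. The receptor *Il1r1* was at 63 and 38 in UT and IL-1α-treated +*GFP* cells and at 25 and 29 in +*MK2* cells, and its accessory chain *Il1rap* at 365 and 380 against 393 and 409. The adaptor *Myd88* had a log2 ratio of 0.27, *Traf6* of 0.87 and *Irak2* of 0.81. The lower gene was *Il1rn*, encoding the IL-1 receptor antagonist, at 663 and 897 against 1705 and 1803 and thus lower in UT cells as well. In the treated cells the receptor chains and adaptors named here were thus within 2-fold. In UT cells *Il1r1* was 2.52-fold higher in +*GFP* cells, with a log2 counting interval of 0.64 to 2.06.

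Several genes were already higher in UT +*GFP* cells and further apart after IL-1α. *Il1b*, encoding IL-1β, was at 47 in UT and 2007 in IL-1α-treated +*GFP* cells, and at 15 and 52 in +*MK2* cells. The ratio was 38.6-fold after IL-1α, and the log2 ratio was 5.24 compared with 1.58 in UT cells. *Acod1*, which makes itaconate in activated macrophages, was at 311 and 6660 against 119 and 137, 48.6-fold higher after IL-1α. *Nlrp3*, the inflammasome sensor, was at 737 and 5124 against 490 and 445, with log2 ratios of 3.52 after IL-1α and 0.59 in UT cells. In +*MK2* cells *Acod1* and *Nlrp3* had nearly the same value in both states.

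Of 11 inflammasome and IL-1 cytokine genes 10 passed, 4 were at least 2-fold higher after IL-1α and 1 lower, with a median log2 ratio of 0.56 after IL-1α and -0.07 in UT cells. *Casp4*, an inflammatory caspase that senses lipopolysaccharide, was at 77 and 224 in UT and IL-1α-treated +*GFP* cells and at 99 and 115 in +*MK2* cells, a log2 ratio of 0.96 after IL-1α. *Il18* had a log2 ratio of 0.17, *Casp1* of -0.09 and *Aim2* of -0.08 after IL-1α. *Gsdmd*, the pore-forming effector, was at 0 and 1 in +*GFP* cells and at 259 and 216 in +*MK2* cells, a difference that stood before IL-1α. *Nlrc4* was higher in +*GFP* cells in both states, at 223 and 304 against 51 and 58.

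Receptors that sense microbial products were split. Of 17 pattern recognition receptors 14 passed, 4 were at least 2-fold higher after IL-1α and 3 lower, and the median log2 ratio was -0.10. Over all genes 4.16% were higher and 5.57% lower. *Tlr2*, the receptor for bacterial lipopeptides, was at 1630 and 9796 in UT and IL-1α-treated +*GFP* cells and at 1187 and 1651 in +*MK2* cells, 5.93-fold higher after IL-1α. *Nod2* was at 111 and 732 against 78 and 106, and *Clec4e*, the receptor Mincle, at 2965 and 13917 against 852 and 956. All 3 had their highest value in IL-1α-treated +*GFP* cells. *Cd14* was 3.59-fold higher after IL-1α, at 3652 and 8072 against 1962 and 2250. *Tlr4*, *Tlr7* and *Tlr9* had log2 ratios of -0.19, -0.04 and 0.24. *Tlr8* was lower after IL-1α, at 109 and 49 in +*GFP* against 66 and 109 in +*MK2* cells.

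Some surface and enzyme genes were several-fold higher and others near equal. *Icam1*, the adhesion molecule that binds leukocyte integrins, was at 1421 and 8329 in UT and IL-1α-treated +*GFP* cells and at 1392 and 1527 in +*MK2* cells, 5.45-fold higher after IL-1α. *Icosl*, the ligand of the costimulatory receptor ICOS, was at 196 and 1260 against 173 and 183, 6.89-fold higher. Both genes were near their UT level in treated +*MK2* cells. *Ptgs2*, the inducible cyclooxygenase, was at 415 and 1544 against 326 and 381, 4.05-fold higher. *Nos2*, inducible nitric oxide synthase, was at 38 in IL-1α-treated +*GFP* cells and at 3 in the other 3 libraries, a log2 ratio of 3.29. *Itgam*, *Cd86* and *Cd44* had log2 ratios of -0.18, 0.09 and 0.40. Over 10 adhesion and costimulation genes the median was 0.35, and 3 were at least 2-fold higher and 1 lower. Over 9 prostaglandin and nitric oxide enzymes the median was 0.20, and 3 were higher and none lower. The higher genes include *Nos2*, which passed the minimum only through the IL-1α-treated +*GFP* library.

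Of 10 survival genes induced by NF-κB, 3 were at least 2-fold higher after IL-1α and 1 lower, with a median log2 ratio of 0.46. *Ier3* was at 722 and 4327 in UT and IL-1α-treated +*GFP* cells and at 773 and 1095 in +*MK2* cells. *Cflar*, encoding the caspase-8 inhibitor c-FLIP, was 2.07-fold higher, at 2108 and 4202 against 1890 and 2030. *Bcl2a1b* was lower in both states, but shares much of its sequence with its paralogs *Bcl2a1a* and *Bcl2a1d*, so its reads cannot be assigned with certainty.

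Other named genes higher only after IL-1α included regulators of transcription and of cell shape. *Irf1*, a transcription factor induced by interferon and NF-κB, was at 324 and 1885 in UT and IL-1α-treated +*GFP* cells and at 343 and 338 in +*MK2* cells. *Prdm1*, encoding the repressor Blimp-1, was at 11 and 314 against 14 and 25. *Mir155hg*, the host transcript of miR-155, was at 1 and 74 against 1 and 3, a ratio of 24.7-fold with a log2 counting interval of 3.02 to 6.93. In each case the IL-1α-treated +*GFP* library lay above the other 3. *Cdc42ep2*, an effector of the GTPase Cdc42, was at 7 and 122 against 6 and 7. *Spata13*, a guanine nucleotide exchange factor, was at 24 and 247 against 26 and 21. *Rnd3*, an atypical small GTPase, was at 9 and 67 against 12 and 11. *Trim13*, a ubiquitin ligase of the endoplasmic reticulum, was at 177 and 862 against 126 and 151. None of these 4 differed between the lines in UT cells by more than 1.40-fold. *Mir155hg*, *Cdc42ep2* and *Rnd3* passed the minimum only through the IL-1α-treated +*GFP* library.

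The kinase pathway of MK2 itself was mostly flat. Of 11 listed kinases and partners 8 passed, with a median log2 ratio of 0.16, none higher and 2 lower after IL-1α. The lower genes were *Mapkapk2*, which the vector supplies in +*MK2* cells, and *Mapk11*, encoding p38β, at 5 and 3 in UT and IL-1α-treated +*GFP* cells and at 172 and 166 in +*MK2* cells. *Mapk14*, encoding p38α, was at 3545 and 3515 against 3093 and 3031. *Mapkapk3*, encoding the related kinase MK3, had a log2 ratio of 0.70 after IL-1α and 0.62 in UT cells.

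Phosphatases that switch off MAP kinases were shifted more. Of 9 listed 8 passed, 4 were at least 2-fold higher after IL-1α and 2 lower, and the median log2 ratio was 0.80 after IL-1α against -0.72 in UT cells. With a minimum mean of 50 the median after IL-1α was 0.49. *Dusp1*, which inactivates p38 and JNK, was at 85 and 188 in UT and IL-1α-treated +*GFP* cells and at 61 and 86 in +*MK2* cells. *Dusp16* was at 490 and 1261 against 370 and 362, 3.48-fold higher after IL-1α. *Dusp2* was at 177 and 715 against 282 and 319. *Dusp6*, which acts on ERK, was far lower in +*GFP* cells in both states, at 84 and 55 against 591 and 571.

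Immediate-early genes did not move together. Of 20 AP-1 and immediate-early genes, all of which passed, 4 were at least 2-fold higher after IL-1α and 3 lower, with a median log2 ratio of -0.08. The higher genes include *Egr2*, which passed the minimum only through the IL-1α-treated +*GFP* library. *Junb* was at 1685 and 5795 in UT and IL-1α-treated +*GFP* cells and at 1651 and 1855 in +*MK2* cells. *Klf6* was 2.94-fold higher after IL-1α. *Fos*, the partner of Jun proteins in AP-1, was at 143 and 67 against 218 and 185, 2.76-fold lower after IL-1α. *Egr1* had a log2 ratio of -0.57 and *Myc* of -0.05. *Fos*, *Egr1* and *Myc* thus lay at or below the +*MK2* level and *Junb* and *Klf6* above it.

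Most genes for factors that act on mRNAs with AU-rich elements were within 2-fold after IL-1α. Of 10 listed 9 passed, 2 were higher after IL-1α and none lower, with a median log2 ratio of 0.17. *Zfp36*, encoding tristetraprolin, was at 641 and 2569 in UT and IL-1α-treated +*GFP* cells and at 788 and 814 in +*MK2* cells, 3.16-fold higher after IL-1α. *Zc3h12a*, encoding the RNase Regnase-1, was at 160 and 1590 against 104 and 268, 5.93-fold higher. *Zfp36l2*, a paralog of tristetraprolin, was at 3729 and 2383 against 4238 and 4321, a log2 ratio of -0.86. *Elavl1*, encoding the stabilizing protein HuR, and *Hnrnpd*, encoding AUF1, had log2 ratios of -0.07 and 0.17.

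In 20 genes the difference between the lines had opposite directions before and after IL-1α, 12 of them higher after it. *Tnfaip3*, encoding the deubiquitinase A20 that restrains NF-κB, was at 147 in UT and 3524 in IL-1α-treated +*GFP* cells, and at 1147 and 1207 in +*MK2* cells. It was thus 7.80-fold lower in UT and 2.92-fold higher in IL-1α-treated +*GFP* cells, and nearly the same in both +*MK2* libraries. *Il1a* was at 13 and 136 against 41 and 55, with log2 ratios of -1.58 in UT and 1.29 in IL-1α-treated cells. *Dusp8* was at 3 and 115 against 8 and 23, and its UT log2 ratio had a counting interval of -3.96 to 0.64. *Rps18-ps3*, a ribosomal pseudogene at 35 and 77 against 91 and 32, may take reads of its parent gene. *Rbm12b1* and *Coq8a* peaked at 37 and 33 normalized counts in the 4 libraries. The UT interval of *Coq8a*, -3.22 to 0.20, also held 0, so the opposite direction of *Dusp8* and *Coq8a* in UT cells lay within counting error. *Dusp8* and *Coq8a* also passed the minimum only through the IL-1α-treated +*GFP* library, so being higher after IL-1α was fixed once they entered.

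The 119 genes lower only after IL-1α differed from the higher ones in level and size. Their median over the 4 libraries was 21.5 normalized counts, against 91.9 for the higher genes and 749 for all genes, and 42 of them reached 50 in some library. Their median log2 ratio after IL-1α was -1.18, and for 95 the counting interval lay below 0, but for only 13 wholly beyond 2-fold. The IL-1α-treated +*GFP* library was the lowest of the 4 for 116 of them, a pattern that the rule for the class favors. Protein-coding genes made up 58.8% of these 119 genes, 75.0% of the 144 higher ones and 86.4% of all.

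*Rgs2*, a regulator of G protein signaling, had the highest level of the named genes of this class. It was at 3713 in UT and 1824 in IL-1α-treated +*GFP* cells and at 4903 and 4977 in +*MK2* cells. After IL-1α it was 2.73-fold lower in +*GFP* cells, with a log2 ratio of -1.45 and an interval of -1.53 to -1.37, compared with -0.40 in UT cells. Here too the +*MK2* libraries differed by less than counting error.

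Immune receptors among the lower genes held fewer counts. *Icos*, a costimulatory receptor best known on T cells, was at 39 and 23 in UT and IL-1α-treated +*GFP* cells and at 49 and 85 in +*MK2* cells. *Clec4a2*, an inhibitory C-type lectin receptor of myeloid cells, was at 101 and 51 against 135 and 150. *Arrdc3*, an arrestin-domain protein, was at 144 and 74 against 170 and 165. In all 3 the IL-1α-treated +*GFP* library was the lowest of the 4. *Inka1*, an inhibitor of the kinase PAK4, was at 333 and 198 against 448 and 436. *Rhov*, another atypical small GTPase, was at 65 and 30 against 52 and 72. *Arhgef10*, a guanine nucleotide exchange factor, was at 111 and 86 against 141 and 206.

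The zinc finger genes *Zfp273* and *Zfp973* had log2 ratios of -1.15 each after IL-1α and of -0.05 and -0.45 in UT cells. They belong to a large family with similar sequences, so reads may be shared between members. *H2ac18*, a histone gene with near-identical copies, was at 29 and 21 against 39 and 58. *Shc4*, *Dynlt2a2*, *Plekhf1*, *AI854703* and *Bicdl1* had log2 ratios between -1.23 and -1.15, and none exceeded 112 normalized counts in any library. Values of this size leave wide intervals, such as -1.87 to -0.64 for *Dynlt2a2*.

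**Figure D3:**
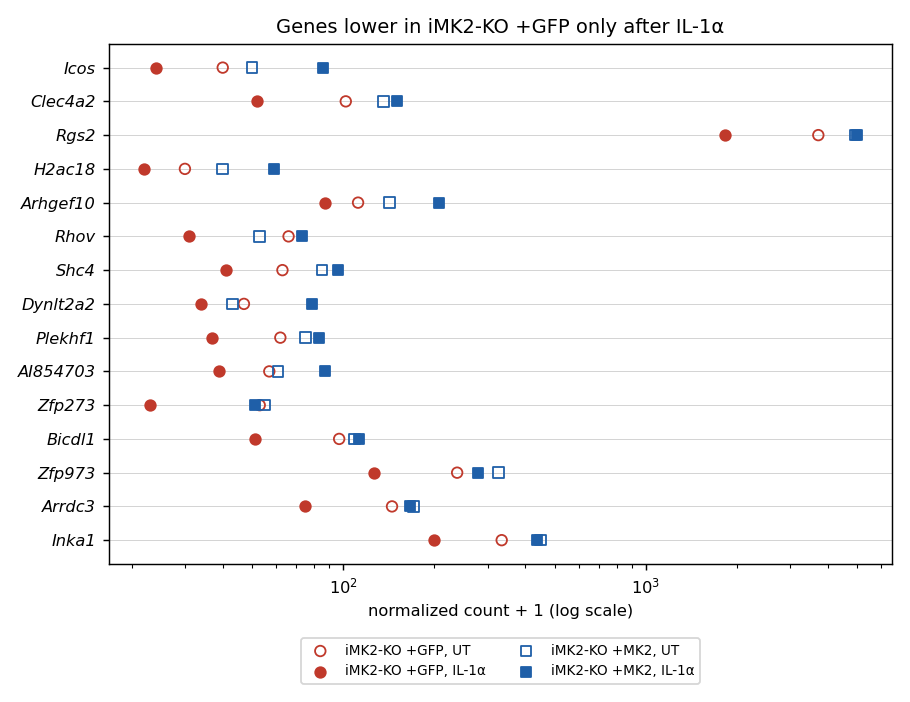
Normalized counts plus 1 on a log axis for the 15 named genes that were lower only after IL-1α, with symbols for line and treatment as in the plot of the higher genes. The filled circle is leftmost for every gene, but apart from *Rgs2* (1824 against 4977) the genes lie below 500 normalized counts and the gaps are narrow.

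The highest and lowest log2 ratios among the named genes were shared by UT and treated cells. *Atp2a3*, a calcium pump of the endoplasmic reticulum, was at 1845 and 1955 in UT and IL-1α-treated +*GFP* cells and at 2 and 3 in +*MK2* cells. *Gpr141*, an orphan receptor, was at 187 and 266 against 2 and 2. *Septin6* was at 157 and 208 against 3 and 0, at least 69.3-fold higher after IL-1α against the floor. In the other direction *Igf2bp3*, an RNA-binding protein, was at 2 and 1 against 1559 and 1461, *Laptm4b* at 5 and 2 against 1939 and 1974, and *Slc45a3* at 1 and 0 against 858 and 920. *Dmwd* and *Tiam1* were at 0 in both +*GFP* libraries and between 431 and 633 in the +*MK2* libraries. For each of these genes the lines differed by far more than the UT and treated cells of a line. *Rpl35a-ps2*, a ribosomal pseudogene that may take reads of its parent gene, and *Rn7s1* were at 0 in both +*MK2* libraries.

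The medians of the lists in this paragraph lay between -0.12 and 0.21. Interferon-stimulated genes (18 passing) had a median log2 ratio of 0.06, with *Irf1* higher and *Ifit1* lower by 2-fold or more. Over 15 cell cycle genes the median was -0.07 and none passed 2-fold in either direction. Over 19 p53 target genes the median was -0.03, with 4 higher and 2 lower. In +*GFP* cells 4 of the 19 were at least 2-fold higher with IL-1α than without it, against 2.25% of all genes. Among the p53 targets, *Fas*, the death receptor, was at 24 and 236 in +*GFP* against 9 and 15 in +*MK2* cells. *Btg2* was 3.56-fold higher after IL-1α, while *Cdkn1a*, encoding p21, had log2 ratios of -0.71 after IL-1α and -0.96 in UT cells. Over 16 macrophage markers the median was -0.12, with *Cd14* and *Cx3cr1* higher, and *Mertk* and *Aif1* among the lower genes. All 12 housekeeping genes stayed under 2-fold, with a median of 0.21.

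**Figure D4:**
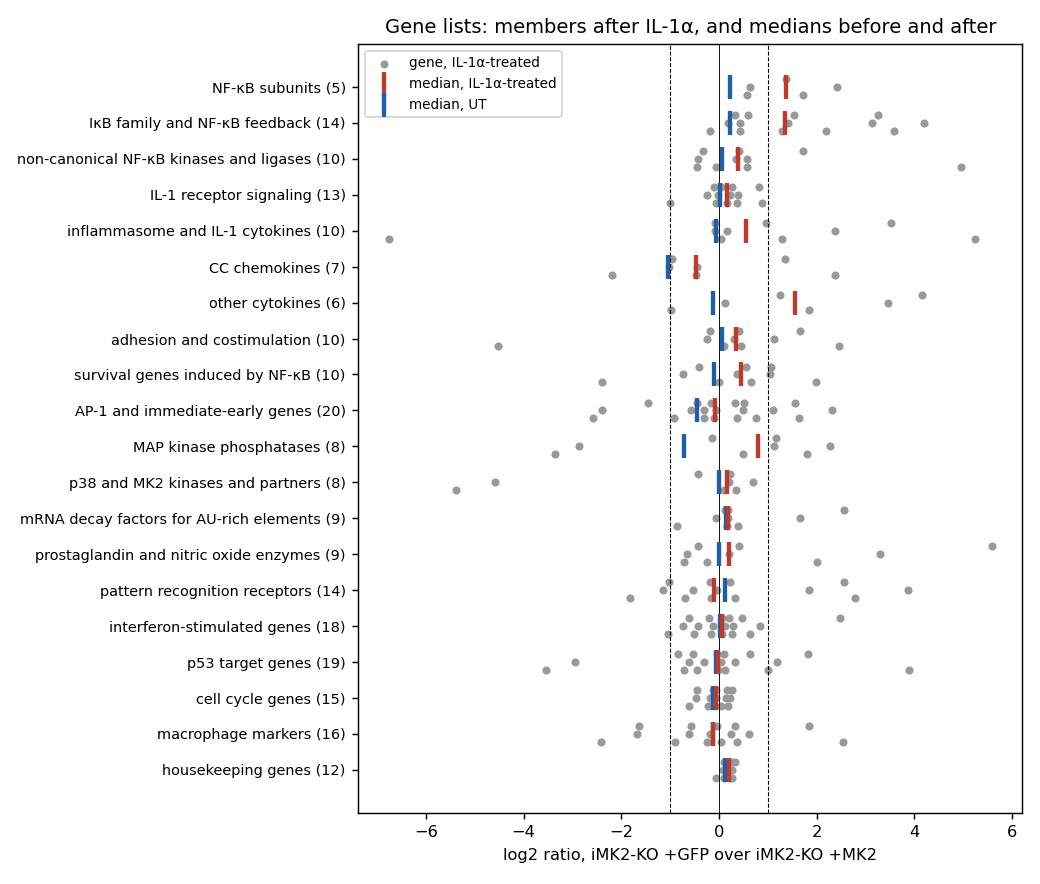
Each grey point is the log2 ratio of +*GFP* over +*MK2* after IL-1α for 1 gene of a list, the red bar is the median after IL-1α and the blue bar the median in UT cells. Numbers in parentheses are genes that passed the minimum. NF-κB subunits (1.38) and the IκB family (1.36) moved to the right of their UT medians, while cell cycle genes (-0.07) and macrophage markers (-0.12) stayed at theirs.

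Promoters of the genes higher only after IL-1α were searched for NF-κB binding motifs, because the inhibitors and cytokines among them are known NF-κB targets. A RefSeq promoter of build GRCm38.p6, from 250 bases before to 50 bases after the start, was found for 89 of 108 protein-coding genes (82.4%). A κB site, written as GGG, 3 bases of any kind and TTCC on either strand, was present for 16 of 89 genes (18.0%), compared with 643 of 8655 (7.43%) among all protein-coding genes examined. For all genes with a promoter in the reference the share was 6.31%. The AP-1 motif TGANTCA was found for 10.1% against 6.03%, and the TATA box motif TATAAA for 13.5% against 8.21%. Over all genes with a promoter in the reference the shares were 8.97% for AP-1 and 15.7% for TATA. In the 250 bases before the start alone, the TATA motif was found for 7.87% of the genes higher only after IL-1α, against 7.43% of all protein-coding genes examined. No share is given for the genes lower only after IL-1α, because fewer than 80% were matched to a promoter.

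The κB matches stood in promoters of *Cxcl2*, *Nfkbie*, *Nfkbia* and *Tlr2* among the named genes, and also of *Nfkb2*, *Rel*, *Tnip1*, *Nfkbid* and *Csf1*. The promoters of *Cxcl2*, *Nfkbie*, *Nfkbia* and *Tlr2* are shown with the κB matches in capitals, read in the direction of the gene. *Cxcl2* has 3 matches, beginning 97, 96 and 78 bases before the start, of which the first pair overlap on opposite strands. The match begins 106 bases before the start in *Nfkbie*, 29 in *Nfkbia* and 173 in *Tlr2*.
Cxcl2, chr5:90903649-90903948, plus strand: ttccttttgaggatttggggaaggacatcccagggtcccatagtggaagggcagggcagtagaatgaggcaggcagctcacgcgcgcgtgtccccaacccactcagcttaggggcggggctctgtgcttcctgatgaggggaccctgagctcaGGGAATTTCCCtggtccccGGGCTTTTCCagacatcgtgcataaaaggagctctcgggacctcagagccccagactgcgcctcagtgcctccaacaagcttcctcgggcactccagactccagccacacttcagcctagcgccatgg
Nfkbie, chr17:45555450-45555749, plus strand: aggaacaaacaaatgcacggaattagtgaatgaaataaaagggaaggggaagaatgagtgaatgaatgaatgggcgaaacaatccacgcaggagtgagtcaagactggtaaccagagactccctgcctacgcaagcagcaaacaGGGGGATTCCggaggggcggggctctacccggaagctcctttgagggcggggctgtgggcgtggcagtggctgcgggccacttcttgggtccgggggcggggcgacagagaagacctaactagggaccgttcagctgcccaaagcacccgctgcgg
Nfkbia, chr12:55492598-55492897, minus strand: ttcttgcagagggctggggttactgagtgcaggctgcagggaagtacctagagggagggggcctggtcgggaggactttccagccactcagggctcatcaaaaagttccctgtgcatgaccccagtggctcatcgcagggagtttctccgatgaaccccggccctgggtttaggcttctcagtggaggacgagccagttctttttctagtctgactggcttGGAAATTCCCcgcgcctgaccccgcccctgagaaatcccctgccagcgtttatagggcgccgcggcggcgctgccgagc
Tlr2, chr3:83841559-83841858, minus strand: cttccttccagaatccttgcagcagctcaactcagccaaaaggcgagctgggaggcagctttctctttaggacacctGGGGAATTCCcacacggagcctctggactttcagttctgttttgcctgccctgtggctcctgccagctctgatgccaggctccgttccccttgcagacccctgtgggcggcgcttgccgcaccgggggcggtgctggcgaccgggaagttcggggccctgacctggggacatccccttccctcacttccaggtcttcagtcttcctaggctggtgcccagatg

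The 4 genes with these sequences were between 5.93-fold (*Tlr2*) and 245-fold (*Cxcl2*) higher in +*GFP* cells after IL-1α. A match of letters is a description of the sequence and not a binding site shown in these cells, and *Tnf* and *Irf1* are among the 9 named genes of this class with no match in this window. The promoters of *Nfkbiz*, *Tnfsf9*, *Relb* and *Ccl4* were not analysed here.

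Since MK2 is known to act on proteins that bind AU-rich elements, the 3′ UTRs of the same genes were read for the 7-base core TATTTAT, taking the longest annotated 3′ UTR of each protein-coding gene in the GENCODE M21 annotation of GRCm38. This search was chosen after the values had been seen. The core was present in 49 of 107 genes higher only after IL-1α (45.8%), compared with 3202 of 10711 among all genes (29.9%). Of the genes lower only after IL-1α it was present in 25.0%. Among genes different in both states it was present in 24.7% of the higher and 31.2% of the lower genes. At least 2 copies were present in 23.4% of the genes higher only after IL-1α and in 10.5% of all genes. The UTRs were of similar length, with medians of 1200 and 1173 bases, and the core occurred 0.676 times per 1000 bases against 0.285. Genes outside the class hold it too. Of the named genes with opposite directions, *Tnfaip3* and *Dusp8* had 2 copies each, *Il1a* had 3, and *Rbm12b1* and *Coq8a* had 0. Whether the core has a part in the differences between the lines was not tested.

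**Figure D5:**
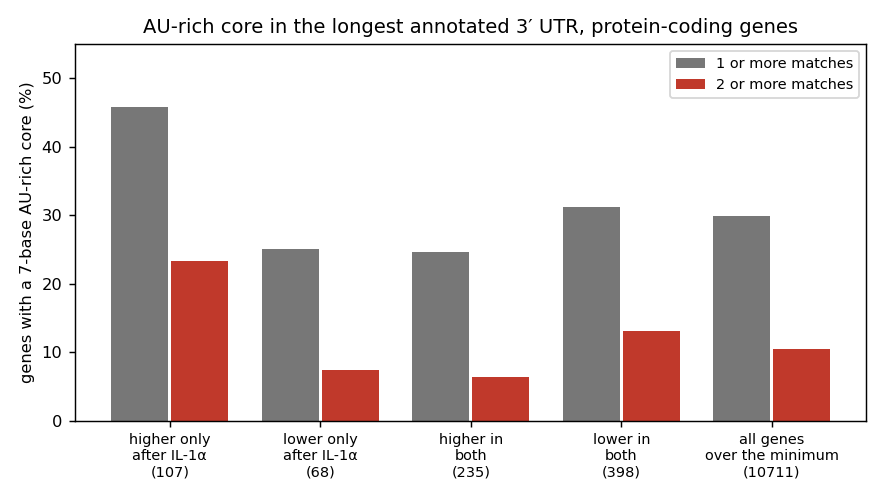
Bars give the percentage of protein-coding genes whose longest annotated 3′ UTR holds at least 1 (grey) or at least 2 (red) copies of the 7-base AU-rich core, by class, with the number of genes in parentheses. Genes higher only after IL-1α reach 45.8% and 23.4%, against 29.9% and 10.5% for all genes over the minimum.

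The cores lie in clusters in some of the named genes. For 5 of them, 30 bases of the 3′ UTR are shown with the TATTTAT copies in capitals, read in the direction of the gene, since these are the stretches with the most copies. *Tnf* has 8 copies in a 3′ UTR of 764 bases and *Cxcl2* has 7 in 1494 bases, some of them overlapping. *Prdm1* has 4, and *Tnfsf9* and *Nfkbia* have 2 each.
Tnf, chr17:35199678-35199707, minus strand: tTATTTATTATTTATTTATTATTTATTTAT
Cxcl2, chr5:90905325-90905354, plus strand: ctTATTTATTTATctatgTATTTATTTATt
Prdm1, chr10:44438188-44438217, minus strand: gctgtaTATTTATgaaccTATTTATaccag
Tnfsf9, chr17:57107603-57107632, plus strand: aactggacttggTATTTATtctgagcatag
Nfkbia, chr12:55489608-55489637, minus strand: aggaccacgtttTATTTATtgtgcttttga

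Among the 15 highest named genes of the class higher only after IL-1α, 14 had a 3′ UTR and these 5 held a core. No copy was found for the other 9, *Nfkbiz*, *Nfkbie*, *Tlr2*, *Icosl*, *Irf1*, *Cdc42ep2*, *Spata13*, *Trim13* and *Rnd3*, which were 5.58-fold to 18.4-fold higher in +*GFP* cells. Of the 15 named genes lower only after IL-1α, *Clec4a2* and *Arhgef10* had 1 copy each and the others none.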

How the data were processed

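RNA was sequenced from 2 lines of i*MK2*-KO macrophages, +*GFP* and +*MK2*, each UT or IL-1α-treated, with 1 library per condition. The authors deposited 1 table with a score per gene and library, given as whole numbers. The submitters' processing notes name DESeq2, and the values were taken as its normalized counts. The column names carry the name of a salmon output file. Tool versions are not given in the sources used here, which also differ on the library kit (poly(A) selection or ribosomal depletion). The notes name GRCm38, but of the 94.1% of gene IDs found in GENCODE M21 on GRCm38 only 2.87% had the same start and end, so no coordinates of the table are printed.

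The normalized counts were used as deposited, with no further scaling and no count model. Log2 ratios used a pseudocount of 1, and folds are quotients of the values. Genes needed a mean of at least 10, which a gene high in 1 library can reach through that library alone. The floor was 3 normalized counts, and no fold was given where both values were at or under it. A difference was called at 2-fold, and as present only after IL-1α where the UT log2 ratio lay within 0.5 of 0. Named genes were taken from 22 lists, from the 15 highest and 15 lowest genes of that class that reached 50 in any of the libraries, and from 5 shared genes per direction and 6 with opposite directions. Names of the Gm-number and Rik kind took no place. The members and lists were chosen with earlier results of these data known. Ratios, intervals and classes were tested on simulated data. Python 3.11.15, pandas 2.3.3 and SciPy 1.17.1 were used.

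Promoters came from RefSeq (GRCm38.p6) and 3′ UTRs from GENCODE M21, matched by gene symbol, synonym or ID. Alternatives were other pseudocounts, scalings, minimum means and thresholds. P-values, tests between conditions and leave-one-out values were not possible with 1 library per condition.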

Additional observations from a re-analysis of the deposited data

Results flagged for a closer look

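Among the named and listed genes, 5 had values that moved in opposite directions with IL-1α in the 2 lines, each beyond counting error and by at least 2-fold in 1 line. The difference was not tested, since each condition has 1 library. The log2 change upon IL-1α of *Coq8a*, which encodes a mitochondrial kinase-like protein of coenzyme Q synthesis, was 2.50 in +*GFP* and -1.81 in +*MK2* cells. For *Rbm12b1* the values were 1.66 and -1.89, and for the pseudogene *Rps18-ps3* 1.12 and -1.48. *Coq8a*, *Rbm12b1* and *Rps18-ps3* were named because their ratios had opposite directions before and after IL-1α. That choice already requires unlike changes in the 2 lines. *Birc3* (cIAP2) had 1.43 and -0.20. *Tlr8*, an endosomal receptor for RNA, had -1.14 and 0.72. Over all genes, 220 were higher with IL-1α in +*GFP* and lower in +*MK2* cells beyond counting error in both, 19 of them by at least 2-fold in +*GFP* cells, and 219 had the reverse pattern, 15 of them by at least 2-fold. *Birc3* had the highest counts of these 5 genes, and its change in +*MK2* cells was the smallest.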

How the results depend on the processing

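No paired analysis was possible because each condition has 1 library and the labels carry no replicate numbers, and for the same reason no library could be left out. Genes at least 2-fold higher and lower numbered 320 and 369 with a minimum mean of 50, 2736 and 3010 with no minimum, 1050 and 1392 at 1.5-fold, 262 and 378 at 3-fold, and 304 and 382 where the counting interval had to lie beyond 2-fold. Genes higher and lower only after IL-1α numbered 85 and 31 with a minimum mean of 50, 1256 and 1184 with no minimum, 384 and 434 at 1.5-fold, 61 and 24 at 3-fold, 74 and 13 by the interval, 81 and 64 with the UT log2 ratio within 0.25, and 240 and 241 within 1. The lower class thus depended more on the minimum and on the interval than the higher one. Other pseudocounts and the 3 scalings left all 4 counts within 1.5 times. A change in log2 ratio of at least 1 was applied only to the genes different only after IL-1α. It gave 182 higher and 146 lower, also within 1.5 times.

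Scaling to *Gapdh* shifted the median log2 ratio of all genes by -0.10. Under it the list medians were 1.26 for the IκB family and 0.28 for the kinases, ligases and adaptors listed with the non-canonical pathway. They were 0.055 for p38 and MK2 kinases, 0.072 for mRNA decay factors and 0.093 for prostaglandin and nitric oxide enzymes. Pattern recognition receptors had -0.20, p53 targets -0.13, cell cycle genes -0.17 and macrophage markers -0.22. Housekeeping genes had 0.10 and interferon-stimulated genes -0.04, the last with another sign. For housekeeping genes scaling to a median ratio of 0 gave 0.16 and to equal totals 0.17. The median of the MAP kinase phosphatases was 0.49 with a minimum mean of 50 and with no minimum, and that of other cytokines 1.12 with no minimum. No gene named or listed with a 2-fold difference changed sign under any pseudocount or scaling. Of the 269 named or listed genes, scaling to *Gapdh* moved the log2 ratio of 105 outside its counting interval. Scaling to a median ratio of 0 did so for 19 and to equal totals for 12. The intervals do not cover the choice of scaling. The κB share of 18.0% became 15.7% with only the bases before the start, against 6.19% of all genes examined, and 19.7% among genes reaching 50 normalized counts, and an AU-rich core was present in 43 of 86 of the latter. The shorter core ATTTA, which TATTTAT contains, occurred 2.26 times per 1000 bases in the genes higher only after IL-1α and 1.82 times in all genes. The AU-rich search, the restriction to genes reaching 50, and leaving out genes with 3 normalized counts or fewer in each UT library (139 genes higher and 119 lower) were chosen after seeing the data. A mean near 10 and 1 library limit what can be seen in the lower class.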
